A study of Mus musculus with 2 samples.

Results

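The cells described here are cluster 1 of the oviduct epithelium of mice at postnatal day 4 (P4), as numbered in the authors' deposited cluster table. That table gives number 1 to 95 of 263 P4 cells (36.1%, exact binomial interval 30.3 to 42.2) and number 0 to the other 168. Oviducts of C57BL/6 mice gave 2 single-cell RNA-seq libraries, 1 at P4 and 1 of adults at estrus, with 669 distinct cells in all. Both were dissociated with enzymes, sorted on Epcam and CD45 to enrich epithelium and remove dead cells, and built with the Chromium 3' V2 kit. The labels name no transgene, allele or treatment in either group, and give neither the number of animals pooled nor the sex or exact age of the adults. The study asked whether epithelium near the ovary (distal) and near the uterus (proximal) arises from separate lineages. Neither the labels nor the tables give the position of a cluster, so cluster 1 is called by its number. Each age is 1 library and the clusters were made from expression, so every difference between P4 clusters is a description, with intervals that cover counting error only and no p-value.

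Through the oviduct the egg passes on its way to the uterus, and fertilization and the earliest steps of embryo development take place in it. It develops from the Müllerian duct, whose epithelium later gives rise to secretory cells, which make the oviduct fluid, and multiciliated cells, whose beating cilia move it. In the newborn mouse most of the epithelium is still immature. Wnt7a is a signal of Müllerian epithelium that patterns the tract, Hox genes mark position along the body axis, and Pax2, Pax8 and Wt1 encode transcription factors of the urogenital tract.

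Cluster 1 held 662573 UMI (unique transcript molecules), with a median of 7029 per cell (1331 to 16223) and a median of 2690 genes per cell. Cluster 0 held 1460629 UMI, with a median of 7856 per cell. Ribosomal protein genes took a median of 28.4% of a cell's UMI in cluster 1 and 29.4% in cluster 0, and mitochondrial genes 0.824% and 0.850%. No barcode of the P4 table occurred in the adult table. A level below is the pooled count of a gene over the cells of a cluster per 10000 UMI, and brackets after a level hold its exact Poisson interval at 95% confidence. A fold compares levels after adding 0.1 per 10000 to each, so it understates differences of low genes. A gene counted as measured where at least 10% of cells of either cluster had a UMI of it, and as called where it differed at least 2-fold.

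The label of epithelium fitted the markers. Epcam, the epithelial adhesion protein used in the sort, stood at 5.80 (5.23 to 6.41) in cluster 1 with a UMI in 92.6% of cells, and at 4.16 in cluster 0 with a UMI in 82.7%. The keratin genes Krt18 and Krt8 stood at 10.5 and 5.74 in cluster 1 and at 10.3 and 6.08 in cluster 0. All 10 epithelial markers were measured and all lay within 2-fold between the clusters. Ptprc, which encodes CD45, had a UMI in 0 of 95 cells, which a share of up to 3 in 95 could give. Of 8 immune markers 5 had 0 counts in cluster 1 (Ptprc, Fcer1g, Tyrobp, Cd3e and Lyz2), as did all 6 erythroid markers. The 8 immune markers summed to 0.423 in cluster 1 and 1.15 in cluster 0, with highest cells at 5.81 and 60.6. Col1a1, a collagen gene of fibroblasts, had a UMI in 70.5% of cluster 1 cells and 75.6% of cluster 0 cells, at a level of 1.96 in both. The summed level of the 10 fibroblast markers was 6.46 in both clusters. That of the 7 smooth muscle markers was 4.23 in cluster 1 and 5.26 in cluster 0, and Acta2 stood at 2.29 and 2.53. Both clusters thus carried like amounts of fibroblast transcripts, and the pooled levels of smooth muscle and immune markers were lower in cluster 1. Median cells were alike, at 4.23 in cluster 1 and 4.19 in cluster 0 for smooth muscle markers and at 0 in both for immune markers. The highest cells for smooth muscle markers were at 11.5 and 53.9. The part of these transcripts in other differences was not tested. The 7 mesothelial markers, which include the epithelial gene Krt19, summed to 12.7 and 9.22.

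The 7 marker genes given for the cluster encode proteins of unlike function. Ckb encodes brain-type creatine kinase, which buffers ATP. It lies on chromosome 12 (111669361 to 111672338, minus strand, GRCm38) and stood at 2.72 (2.33 to 3.14) in cluster 1 against 0.50 (0.392 to 0.628) in cluster 0. Over single cells of cluster 1 its level ran from 0 through a median of 1.95 to 14.7, and it was counted in 64 of 95 cells against 42 of 168. Ckb ranges of the clusters thus overlapped, though the median cluster 0 cell had none. Lgi1, a secreted leucine-rich repeat protein gene known from neurons (chromosome 19, 38264536 to 38312214, plus strand), stood at 1.13 (0.890 to 1.42) against 0.164. It was counted in 48 of 95 cells and 19 of 168 cells. Ptpn22, which encodes a tyrosine phosphatase best known from lymphocytes (chromosome 3, 103859795 to 103912247, plus strand), stood at 5.67 (5.12 to 6.28) against 1.21 (1.04 to 1.40). It was counted in 84 of 95 cells, with a median of 4.32 and a highest value of 36.5. Of the 8 immune markers 5 were at 0 in cluster 1.

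Serpina1e belongs to the alpha-1-antitrypsin family of protease inhibitors and lies on chromosome 12 (103946931 to 103958975, minus strand). It stood at 1.86 (1.54 to 2.21) against 0.370, with a median cell at 0, a highest cell at 15.6 and a UMI in 42 of 95 cells. Its near-identical family members can share reads, so this value is uncertain. Calb1, the calcium buffer calbindin (chromosome 4, 15881264 to 15908064, plus strand), stood at 2.52 (2.15 to 2.93) against 0.548 and was counted in 54 of 95 cells. Wnt7a (chromosome 6, 91363981 to 91411363, minus strand) stood at 0.574 (0.406 to 0.787) against 0.151 (0.0944 to 0.228). It was counted in 34 of 95 cells and 19 of 168 cells, so most cells of either cluster had none. Wfdc2, a protease inhibitor of reproductive tract epithelium (chromosome 2, 164562413 to 164568510, plus strand), was counted in all 95 cells. Its level was 19.6 (18.5 to 20.7), with single cells from 3.61 through a median of 18.3 to 44.8, against 8.62 (8.15 to 9.11) and a median of 7.78 in cluster 0.

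No marker divided the cells cleanly, but their combination was common in cluster 1. At least 4 of the 7 markers were counted in 72 of 95 cells (75.8%, 65.9 to 84.0) and in 31 of 168 cluster 0 cells (18.5%, 12.9 to 25.2). The median was 4 markers per cell in cluster 1 and 2 in cluster 0. After thinning to 2000 UMI per cell, with 92 and 163 cells kept and 3 and 5 left out as too shallow, 25 of 92 cells (27.2%) and 1 of 163 (0.613%) had at least 4. The clusters were made from these genes among others, so the separation describes them.

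**Figure D1:**
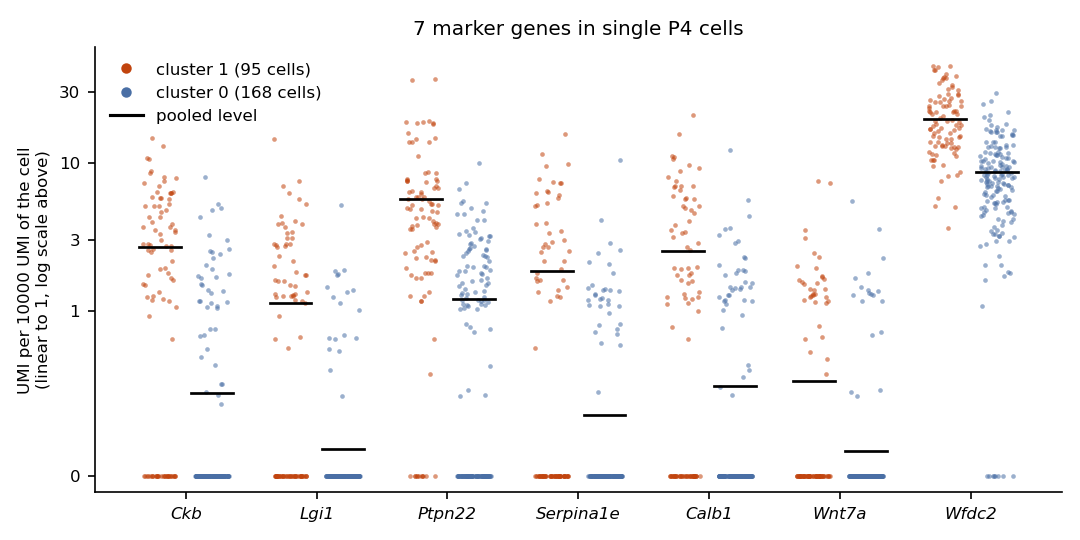
Level of the 7 marker genes in every P4 cell, in UMI per 10000 UMI of that cell (vertical axis linear to 1 and logarithmic above), for the 95 cells of cluster 1 and the 168 of cluster 0, with lines at the pooled levels. The clouds overlap for every gene, and Wfdc2 is above 0 in all 95 cells of cluster 1.

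Outside ribosomal protein genes (28.3% of the UMI of cluster 1), the 15 most abundant genes took 5.6% of UMI. Malat1, a nuclear noncoding RNA, came highest at 146 (143 to 149), with single cells from 10.2 through a median of 129 to 868. It was followed by Ifitm3 at 44.7 (43.1 to 46.4) and Ifitm1 at 42.5 (40.9 to 44.1), nearby genes of chromosome 7 whose products restrict virus entry and are also known from germ cells. Every cluster 1 cell had a UMI of both, with medians of 45.6 and 42.5 and lowest values of 7.51 and 6.90. In cluster 0 the pooled levels were 32.4 and 23.4. Ptma (prothymosin, 38.3), Tmsb10 (34.5) and Tmsb4x (26.8, both thymosins that bind actin), the elongation factor gene Eef1a1 (33.0) and Fau (28.6), which encodes a fusion with a ribosomal protein, were among the next. The actin genes Actb and Actg1 stood at 27.0 and 22.3, the histone gene H3f3b at 25.1, the cyclophilin gene Ppia at 19.6 and the chaperone gene Hsp90ab1 at 19.6. Of these 15 genes 14 lay within 2-fold of cluster 0, and the exception was Wfdc2. Ifitm1 came nearest to the threshold among the rest at 1.81-fold (ratio interval 1.73 to 1.91), and Actb was lower at 0.604-fold.

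Variability was read from a dispersion in which 1 is the spread of counting alone at each cell's depth. Over the 704 genes with at least 100 counts and a UMI in at least 10% of the cells, its median was 1.14, and 82 genes exceeded 2. Malat1 led at 26.6, and Hist1h2ap, a replication-dependent histone gene, followed at 20.3 with counts in 19 of 95 cells. A single cell carried 47.8% of the Hist1h2ap value, which was 16.5 without it. Actb reached 19.6. Vps8, a gene of endosome tethering, reached 12.1 with counts in 47 of 95 cells, at a level of 4.66 in cluster 1 and 3.92 in cluster 0. Its adult levels were 0 to 0.357. The P4 and adult tables list different gene sets (53573 and 27998 genes), and whether this touches Vps8 was not tested.

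The other variable genes fell into a few kinds by known function. Genes of dividing cells were Hmgb2 (6.04), a chromatin protein, Pclaf (4.62), a partner of the replication clamp, and H2afz (4.47), a histone variant. At least 5 UMI over 6 genes of division were counted in 11 of 95 cells (11.6%, 5.92 to 19.8), against 35 of 168 (20.8%, 15 to 27.8) in cluster 0, whose cells are deeper. At equal depth the shares were 3 of 92 (3.26%) and 1 of 163 (0.613%), so no difference in dividing cells is read from them. The proliferation list summed to 5.24 in cluster 1 and 5.34 in cluster 0. The dispersion of Hist1h2bc was 5.59. Genes of rapid response were Cebpb (7.49), Cyr61 (4.62) and Fos (4.23), and Sfn, the epithelial 14-3-3 sigma gene, reached 4.32. Cebpb depended in part on 1 cell at 74.9 per 10000, without which its dispersion was 5.18. The metallothionein genes Mt1 (7.61) and Mt2 (4.94) encode small proteins that bind zinc and copper, and Ptpn22 (4.75) was the only marker gene among the 15. The markers Lgi1 and Wnt7a had 75 and 38 counts in cluster 1, fewer than the 100 required, and were not ranked. Of the 15, Cebpb (2.58-fold), Sfn (2.67-fold), Mt2 (2.29-fold) and Ptpn22 were also at least 2-fold higher in cluster 1 than in cluster 0. From cells thinned to 2000 UMI, 8 of the 15 were chosen again.

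Among the 105 pairs of these 15 genes, 2 had a Spearman rho of at least 0.5 over the 95 cells, which share 1 library. Mt1 and Mt2 varied together from cell to cell (rho 0.51, Pearson r 0.60), and so did Hmgb2 and H2afz (0.50 and 0.68). The most negative pair was Malat1 with Hist1h2bc (rho -0.33). Mt1 ranged from 0 through a median of 4.32 to 55.5 and was counted in 86 of 95 cells. Mt2 ranged from 0 through a median of 2.0 to 24.7 and was counted in 67. The metallothionein genes lie side by side on chromosome 8 (Mt1 at 94179082 to 94180327 and Mt2 at 94172664 to 94173568, both plus strand). The 250 bases upstream of each RefSeq start are shown since these members varied together. They come from RefSeq on GRCm38.p6, plus strand, at chr8:94178839-94179088 for Mt1 and chr8:94172368-94172617 for Mt2. RefSeq starts differ from the gene positions above, which are from GENCODE. The Mt1 window ends just inside its GENCODE gene, and the Mt2 window ends short of its GENCODE start. Capitals mark the core of the metal response element, searched as TGCGCNC or TGCACNC on both strands.
Mt1: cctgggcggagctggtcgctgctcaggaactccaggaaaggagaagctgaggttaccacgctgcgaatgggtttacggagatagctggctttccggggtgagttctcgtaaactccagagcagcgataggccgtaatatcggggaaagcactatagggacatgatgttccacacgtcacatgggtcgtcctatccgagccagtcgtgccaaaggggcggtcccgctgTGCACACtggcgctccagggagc
Mt2: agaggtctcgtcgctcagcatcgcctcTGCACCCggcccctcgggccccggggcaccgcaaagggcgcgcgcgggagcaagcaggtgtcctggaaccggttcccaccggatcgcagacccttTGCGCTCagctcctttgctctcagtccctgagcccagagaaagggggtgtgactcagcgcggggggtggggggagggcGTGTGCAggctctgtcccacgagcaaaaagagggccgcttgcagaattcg
Mt1 held 1 match, 23 bases before its RefSeq start, and Mt2 held 3, at 223, 128 and 50 bases before its start, the last of them on the minus strand. Of 27025 windows of this length, 21.3% held at least 1 match and 1.28% held at least 3. Only these 250 bases before each RefSeq start were searched, so the counts of 1 and 3 are of the windows and not of the whole promoters. A match describes letters and not binding, which was not measured here.

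**Figure D2:**
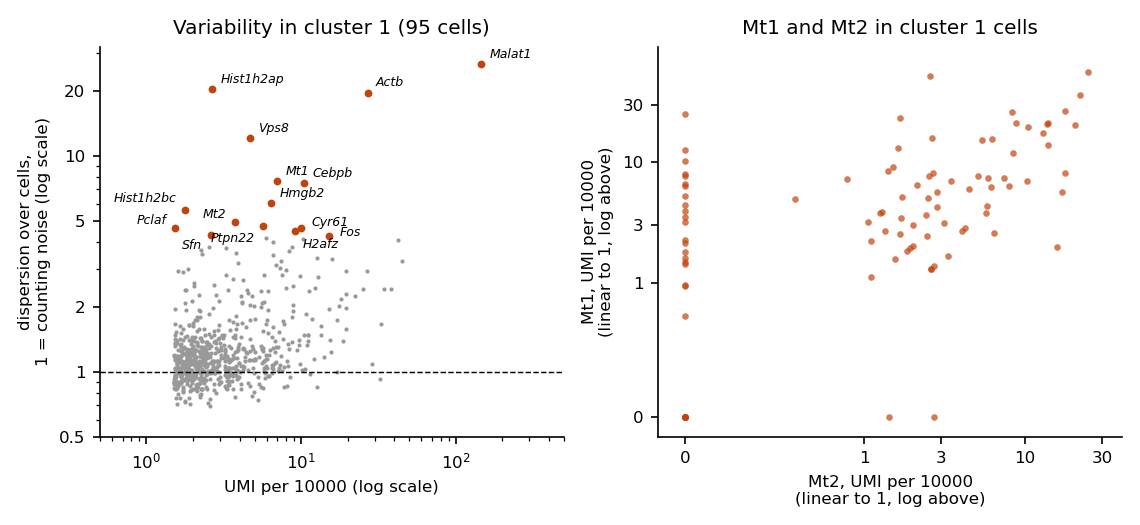
Left, dispersion over the 95 cluster 1 cells against pooled level (both axes logarithmic) for the 704 ranked genes, with the 15 highest named and a dashed line at counting noise. Right, Mt1 against Mt2 in each cluster 1 cell, in UMI per 10000 (linear to 1, logarithmic above); cells high in one tended to be high in the other (rho 0.51).

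Between the P4 clusters, 8721 genes were measured. Of these, 123 were at least 2-fold higher in cluster 1 (1.41%) and 120 at least 2-fold lower (1.38%), with a median log2 fold of -0.01 over all measured genes. Most of these 243 genes were low: 221 stood under 2 per 10000 in both clusters. With a pseudocount of 0.5 in place of 0.1, 21 were higher and 15 lower. Besides Ckb, Lgi1, Ptpn22, Serpina1e and Calb1 (4.70-, 4.66-, 4.4-, 4.17- and 4.05-fold), the 15 largest folds included Car2, Sftpd, Napsa and Atp6ap2. Car2, the cytosolic carbonic anhydrase that makes bicarbonate, stood at 2.38 (2.03 to 2.79) against 0.609 (3.5-fold) and was counted in 71 of 95 cells against 56 of 168. Sftpd, a surfactant protein and lectin gene of innate defence, stood at 0.468 against 0.0685 (3.37-fold). Napsa, an aspartic protease gene of lung and kidney epithelium, stood at 0.377 against 0.0479 (3.23-fold). Atp6ap2, an accessory subunit of the vesicular proton pump and the prorenin receptor, stood at 2.54 (2.17 to 2.95) against 0.739 (3.14-fold) and was counted in 72 of 95 cells.

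The neurotrophin gene Ntf3 stood at 0.679 (0.495 to 0.909) against 0.0958 (3.98-fold), with counts in 31 of 95 and 13 of 168 cells. Nsg2, a gene of neuronal vesicles, stood at 0.649 against 0.144 (3.07-fold). Fbp2, the muscle form of fructose bisphosphatase, stood at 0.438 against 0.0616, Mpped2 at 0.498 against 0.0890, the coregulator gene Sbno2 at 1.78 against 0.527, and Gcnt1, an enzyme gene of mucin-type glycans, at 0.589 against 0.130 (3.33-, 3.16-, 3.0- and 2.99-fold). Most of these low genes were counted in fewer than 40 of the 95 cells, so a cell without a UMI need not lack the transcript. Among the largest folds, Sftpd, Napsa, Ntf3, Nsg2, Fbp2, Mpped2 and Gcnt1 reached 10% of cells in cluster 1 alone. The filter thus had a part in their calls. Ovgp1, the oviduct glycoprotein that coats the egg, stood at 3.77 (3.32 to 4.27) against 1.38 (1.19 to 1.58), with a UMI in 64 of 95 and 68 of 168 cells. At equal depth it was counted in 40.2% and 21.5% of cells.

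Genes of cilia stood lower in cluster 1, in large part through 6 cells of cluster 0. The summed level of the 15 multiciliated markers was 1.72 in cluster 1 and 8.50 in cluster 0. Without the 6 cluster 0 cells that held over 30 multiciliated UMI per 10000, it was 3.18 in cluster 0. No cluster 1 cell exceeded that limit (0 of 95, which a share of up to 3 in 95 could give). Of the 15 markers 8 were measured and all 8 were called lower, but 4 of them reached 10% of cells in cluster 0 alone, so the filter had a part in that count. Without the 6 cells 1 of the 8 stayed called, Foxj1, with a log2 fold of -1.40 in place of -2.04. Foxj1, a master regulator of motile cilia, stood at 0.211 (0.116 to 0.355) against 1.18 (1.01 to 1.37), with counts in 11 of 95 and 54 of 168 cells. The dynein light chain gene Dynlrb2 stood at 0.151 against 1.17 (5.06-fold lower) and Pifo, a gene of cilium disassembly, at 0.166 against 0.897 (3.75-fold lower). Genes of multiciliated precursors summed to 0.664 in cluster 1 and 3.26 in cluster 0, or 1.86 without the 6 cells. Deup1, Myb, Ccno and Mcidas were called lower, and all 4 reached 10% of cells in cluster 0 alone. Deup1, needed to multiply centrioles, had 1 count in cluster 1 and 95 in cluster 0 (cluster 0 over cluster 1, interval of the ratio 7.55 to 1720). Mcidas, which switches on that programme, had 1 and 40 counts (3.08 to 734), and Myb stood at 0.136 against 0.801. Riiad1 and Hspa4l each had 3 counts in cluster 1 (ratio intervals 3.94 to 59.2 and 2.49 to 38.6).

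Without the 6 cells Dynlrb2, Riiad1 and Hspa4l were also within 2-fold (log2 fold -0.83, -0.81 and -0.68). Smaller differences than with all cells remained for Deup1 (-1.63 in place of -2.70), Pifo (-1.10 in place of -1.91), Myb (-1.09 in place of -1.93) and Mcidas (-1.01 in place of -1.70). The number of lower genes was 80 in place of 120, while that of higher genes was 117 in place of 123. Other genes among the 15 largest folds have no list here. They were BC048679 (0.543 against 2.49), Shisa8 (0.241 against 1.24), Plac8 (0.136 against 0.746), the adhesion gene Cadm1 (0.196 against 0.904), Hp, the gene of the hemoglobin binder haptoglobin (0.136 against 0.671), Ccdc146 (0.166 against 0.753) and Ppp1r1b, a phosphatase inhibitor gene (0.377 against 1.42). Ppp1r1b was counted in 19 of 95 and 97 of 168 cells and Cadm1 in 10 of 95 and 74 of 168, so both were spread over many cluster 0 cells. Pifo, Riiad1, Hspa4l, Plac8 and Hp reached 10% of cells in cluster 0 alone, so the filter had a part in their calls. With a pseudocount of 0.5 Riiad1, Hspa4l, Plac8, Hp, Ccdc146 and Mcidas were under 2-fold lower (log2 fold -0.59 to -0.97). With it Ntf3, Nsg2, Gcnt1, Sftpd, Mpped2, Fbp2, Wnt7a and Napsa were likewise under 2-fold higher (log2 fold 0.98 to 0.68). The other genes among the 15 largest folds on the higher side stayed at least 2-fold higher.

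**Figure D3:**
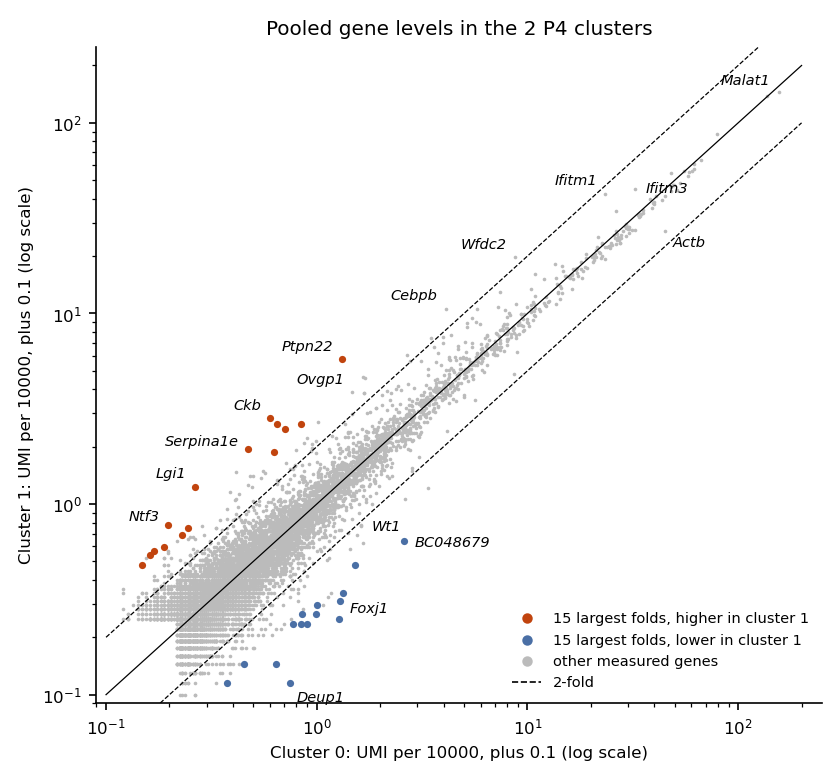
Pooled level of each measured gene in cluster 1 against cluster 0, in UMI per 10000 plus 0.1 on logarithmic axes, with the 15 largest folds in each direction coloured and dashed lines at 2-fold. Most abundant genes lie near the diagonal, and 221 of the 243 genes at least 2-fold apart stand under 2 per 10000 in both clusters.

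Genes were also grouped by known function. Over all measured genes 2.79% were called in either direction, which is the background for each count. A gene that reached 10% of cells in 1 cluster alone was measured only through it, so the filter had a part in its call. Not every such gene was called: of 4 growth and neurotrophic factor genes that passed through cluster 1 alone, 1 was called. Among the called genes below, Hoxb8, Crabp2, Ntf3, Krt17 and Cdh5 passed in this way on the higher side. On the lower side Nr2f1, Gata6, Hoxc5, Wnt7b, Aldh1a3, Tgfb2, Spink8, Wfdc18, Agr2 and Nid1 did. Ckb, Lgi1, Ptpn22, Serpina1e, Calb1, Wnt7a and Wfdc2 were given as markers, so their calls are no evidence about the lists that hold them. Of 13 measured transcription factor genes of the tract, Pax2 was higher and Wt1, Nr2f1 and Gata6 were lower, while 9 lay within 2-fold. Wt1 (chromosome 2, 105126529 to 105173616, plus strand) stood at 0.679 (0.495 to 0.909) with counts in 31 of 95 cells, against 1.53 (1.33 to 1.74) and 118 of 168. Pax2 (chromosome 19, 44756045 to 44837871, plus strand) stood at 0.392 (0.256 to 0.575) with counts in 24 of 95 cells, against 0.137 (0.0836 to 0.211) and 20 of 168. Wt1 and Pax2 were counted together in 9 of the 95 cells. Pax8 did not differ beyond counting error, at 1.33 (1.07 to 1.64) against 1.40 (1.21 to 1.60). Nr2f1, a nuclear receptor gene, had 5 counts against 43, and the zinc finger gene Gata6 had 3 against 48 (interval of the ratio 0.0275 to 0.427). Both the Pax2 and the Wt1 fold are close to the threshold. Pax2 was under 2-fold at equal depth (log2 fold 0.91) and with a pseudocount of 0.5 (0.49). It was also under 2-fold without dividing cells (0.98), without the cells with the most UMI (0.92) and without multiciliated-rich cells (0.997). Wt1 was under 2-fold with a pseudocount of 0.5 (-0.78) and without cells rich in Actb (-0.96).

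Of 35 Hox genes 13 were measured, and 5 were called. Hoxb6 (0.936 against 0.397), Hoxb7 (0.649 against 0.274) and Hoxb8 (0.257 against 0.0205) were higher. These are neighbours on chromosome 11 (Hoxb8 at 96281905 to 96285315, Hoxb7 at 96286623 to 96290162 and Hoxb6 at 96292476 to 96301569, plus strand). Hoxb8 had 17 counts in cluster 1 and 3 in cluster 0 (ratio interval 3.61 to 66.5). Hoxb6 and Hoxb7 lay at the threshold, with folds of 2.08 and 2.0. Hoxb6 was under 2-fold at equal depth (log2 fold 0.96), with a pseudocount of 0.5 (0.68) and without dividing cells (0.95). It was just under 2-fold as a mean over cells (0.9990) and without multiciliated-rich cells (0.9996). Hoxc4 (0.196 against 0.513) and Hoxc5 (2 counts against 36, ratio interval 0.0143 to 0.476) were lower. Of the Hox genes, 14 had 0 counts in cluster 1, among them Hoxa10, Hoxa11 and Hoxa13.

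Signalling genes differed singly. In the Wnt list 17 genes were measured, with Wnt7a higher, and Wnt7b (2 counts against 24, ratio interval 0.021 to 0.740) and the R-spondin receptor gene Lgr4 (0.423 against 1.05) lower. Wnt7b was counted in 2 of the 95 cells and Wnt7a in 34. Of 17 measured growth and neurotrophic factor genes Ntf3, Lgi1 and Fgf1 (0.649 against 0.233) were called higher and none lower. Over all 28 genes of that list 18 had the higher level in cluster 1 and 7 in cluster 0. In the retinoic acid list Crabp2, which carries retinoic acid to its receptor, was higher (0.423 against 0.103), and Aldh1a3, which makes retinoic acid, was lower (0.0755 against 0.335), out of 9 measured. Notch2 was lower (0.966 against 2.52, 2.46-fold) among 7 Notch pathway genes, but not called among cells with little Actb (1.62-fold lower), and Tgfb2 (2 counts against 42, ratio interval 0.0123 to 0.404) among 14 of the Tgfb and Bmp list. All 8 measured steroid hormone genes lay within 2-fold, and 7 were above 0, with the estrogen receptor gene Esr1 at 1.19 (0.944 to 1.49) against 0.883 (0.737 to 1.05).

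Genes of secretion split in both directions. Of 14 measured secreted products, Wfdc2, Ovgp1 and Serpina1e were higher, Wfdc18 (0.121 against 0.575), Agr2 (0.0604 against 0.288) and Spink8 (2 counts against 30, ratio interval 0.017 to 0.579) were lower, and 8 lay within 2-fold. The 3 lower genes reached 10% of cells in cluster 0 alone. The list's median log2 fold was -0.56, its summed level was higher in cluster 1 (31.6 against 18.4), and the median turned positive once genes counted in few cells were left out (0.24 with a UMI in at least 25% of cells). The sum holds the given markers Wfdc2 (19.6 against 8.62) and Serpina1e (1.86 against 0.370), so it is no evidence about the list. Over all 25 genes of the list 12 had the lower level in cluster 1 and 9 the higher. Fluid transport genes included Car2 and the sodium pump regulator gene Fxyd3 (3.71 against 1.57) as higher among 11 measured, and none lower. The calcium genes Calb1 and S100g (0.483 against 0.157) were higher among 12, and the tight junction gene Cldn10 (1.99 against 0.774) among 22 junction genes. Ckb was the only called gene of 5 measured for creatine and energy buffering. Ccnd2, a cyclin of the growth phase, was 2.72-fold higher (4.5 against 1.59), while all 10 proliferation genes lay within 2-fold. The basement membrane gene Nid1 was the only called gene of 14 for the extracellular matrix, and was lower (0.136 against 0.383). Single higher genes of other lists were Krt17 (0.347 against 0.123) and the glycolytic enzyme gene Hk2 (1.03 against 0.329). No gene was called among 15 imprinted and 13 antigen presentation and interferon genes, the latter including Ifitm1 and Ifitm3.

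Dissociation stress genes also stood higher in cluster 1, a value that goes beside all these counts. Of 16 measured, Hspb1 (5.98 against 2.59), Socs3 (7.30 against 3.40) and Nr4a1 (5.55 against 2.68) were called. The log2 fold was above 0 in 14 of the 16, with a median of 0.61. The summed level of the list was 122 against 84.0, with single cells from 39.2 to 221 in cluster 1 and from 6.22 to 216 in cluster 0. Cebpb, also a rapid response gene, stood at 10.5 against 4.01. The part of this response in the other differences was not tested. Among markers of other cell types, Cdh5, an adhesion gene of endothelium, was called higher (0.241 against 0.0479), while Tie1 was at 0 and the summed endothelial level was 0.589 against 0.616.

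**Figure D4:**
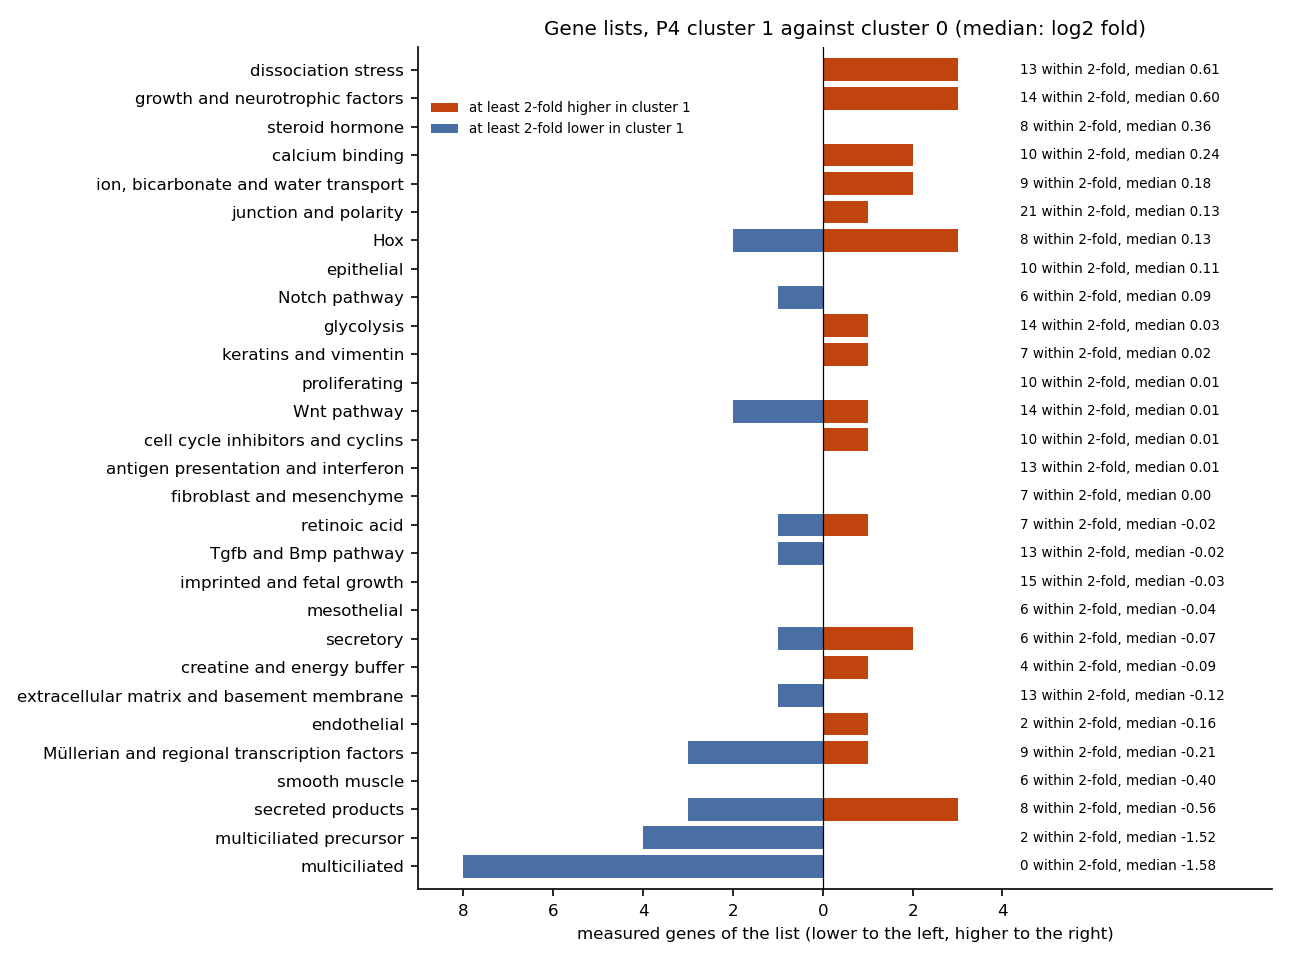
For each gene list with at least 3 measured genes, the number at least 2-fold higher (right) and lower (left) in P4 cluster 1 than in cluster 0, with the number within 2-fold and the list's median log2 fold printed beside it. Some genes passed the filter through 1 cluster alone, so the filter had a part in these counts. Of the 8 multiciliated genes 4 did so, and none of the 16 of dissociation stress (median 0.61).

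Actb varied widely in both clusters. Of 95 cluster 1 cells 12 (12.6%, 6.70 to 21.0) held over 50 Actb UMI per 10000, at a pooled level of 87.7 (81.6 to 94.1), and the other 83 stood at 17.8. Of 168 cluster 0 cells 42 (25%, 18.7 to 32.3) exceeded 50, at 122 (118 to 125), and the other 126 stood at 18.3. High cells were thus a smaller share of cluster 1 and also held less Actb there, and below 50 the levels were alike. In cluster 1 the 12 cells also held more Bmp2k (9.98 against 2.66), Spry2 (4.82 against 1.11), Slc39a1 (2.75 against 0.539) and Notch2 (2.75 against 0.695). Between 40 and 60 lay 3 of 95 cells of cluster 1 and 11 of 168 of cluster 0. The limit of 50 and these genes were chosen after the values were seen. In cells under it Notch2 stood at 0.695 against 1.19, 1.62-fold lower in cluster 1, so its call was lost.

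The authors' clustering of both ages together did not keep the P4 clusters apart. Of the 95 cells 91 are in the merged table, and 88 of them (96.7%, 90.7 to 99.3) carried merged number 1 and 3 merged number 0. Of the 168 cluster 0 cells 148 are in the merged table and 20 are not. Of the 148, 137 (92.6%, 87.1 to 96.2) also carried merged number 1, and 11 merged number 0. Of 402 distinct adult cells 2 carried merged number 1. The merged clustering used the same cells and is no independent evidence.

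The adult library took no part in making the P4 clusters, and its 406 distinct cells carry the authors' numbers 0, 1, 3, 4 and 5. Lgi1 and Wnt7a had 0 counts in all adult cells, so levels of up to 0.0214 (3 counts over the adult UMI) were not detectable. In single adult clusters 3 counts equal more, up to 0.491 in cluster 4. The Poisson interval of Wnt7a reached 0.604 there, above its level of 0.574 in P4 cluster 1. Calb1 stood at 10.1 in adult cluster 4 and 6.42 in cluster 5, against 1.81 in cluster 0 and 0.219 in cluster 1. Serpina1e stood at 8.74 in adult cluster 5 and at 0.0585 to 0.982 elsewhere. Wfdc2 was also highest in adult cluster 5 (7.50) and at 1.13 to 1.81 in the other adult clusters. Ckb went with other adult cells: it stood at 16 and 14 in adult clusters 1 and 3, which carry the cilium genes (Foxj1 8.09 and 5.03), and at 0.253 in cluster 0. In the P4 library Ckb was thus higher in the cluster with less Foxj1. Ptpn22 was highest in adult cluster 3 (8.61), and Ovgp1, at 3.77 in P4 cluster 1, reached 282 in adult cluster 4. Age and library cannot be told apart here, and the adult and P4 tables list different gene sets.

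The genes that set P4 cluster 1 apart were then counted in contrasts of adult clusters 1, 3, 4 and 5 with adult cluster 0, which share cluster 0 as control and are given side by side. Of the 123 genes higher in P4 cluster 1, 71 were measured between adult clusters 5 and 0, and 34 of them (47.9%) were at least 2-fold higher in adult cluster 5, against 14.8% of all 5835 genes measured. In the opposite direction 4 of the 71 (5.63%) were lower, against 8.41% of all genes. In adult cluster 3, 37 of 70 (52.9%, background 26.9%) were higher and 7 (10%, background 14.3%) lower. Adult cluster 4 showed both directions alike, with 14 of 47 higher (29.8%, background 8.99%) and 14 lower (29.8%, background 20.8%). In adult cluster 1, 10 of 51 (19.6%, background 23.0%) were higher and 25 (49.0%, background 12.7%) lower. The share higher exceeded the background in adult clusters 3, 4 and 5, and the share lower exceeded it in clusters 1 and 4.

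The 120 genes lower in P4 cluster 1 were counted in the same contrasts. In adult cluster 1, 44 of 78 measured (56.4%, background 23.0%) were higher and 18 (23.1%, background 12.7%) lower. In adult cluster 3, 39 of 79 (49.4%, background 26.9%) were higher and 23 (29.1%, background 14.3%) lower. In adult cluster 4, 5 of 49 (10.2%, background 8.99%) were higher and 18 (36.7%, background 20.8%) lower. In adult cluster 5, 13 of 71 (18.3%, background 14.8%) were higher and 15 (21.1%, background 8.41%) lower. Adult cluster 5 holds 25 cells, 7 of them rich in smooth muscle genes. With the other 18 cells alone, 42 of 71 of the genes higher in P4 cluster 1 (59.2%, background 16.5%) were higher there and 8 (11.3%, background 18.7%) lower.

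**Figure D5:**
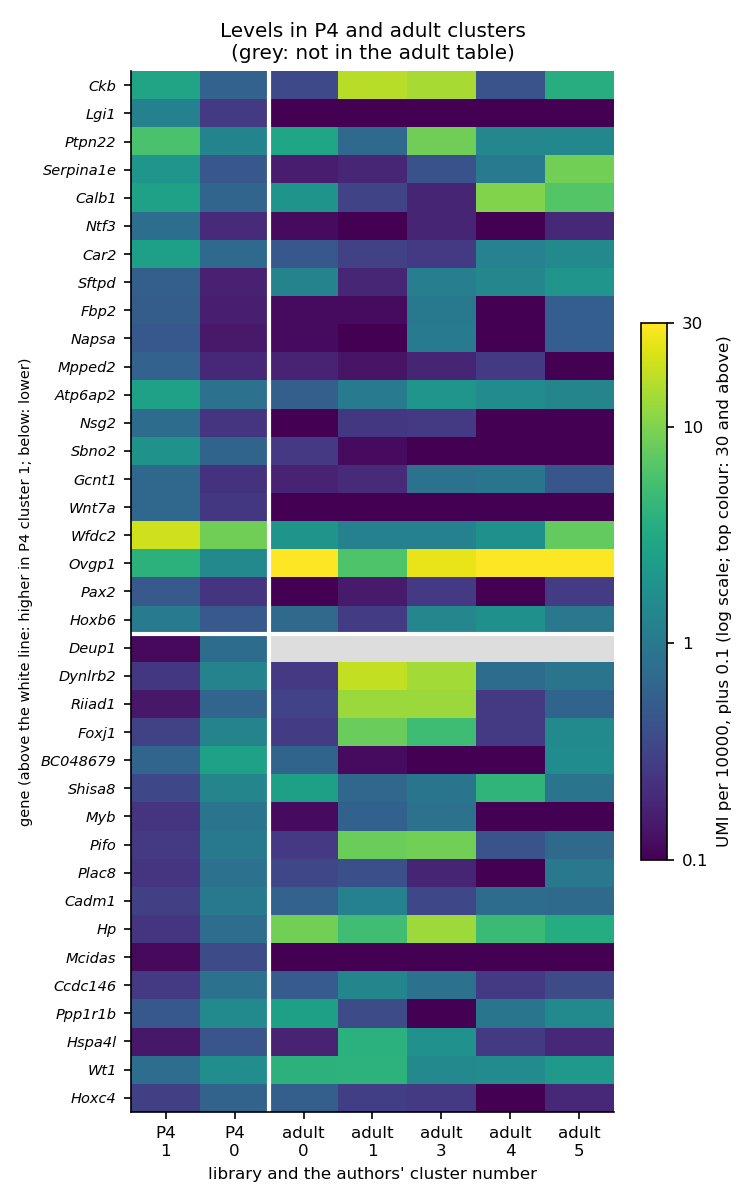
Pooled level (colour, UMI per 10000 plus 0.1, logarithmic, topped at 30) of genes higher (above the white line) and lower (below it) in P4 cluster 1, in both P4 clusters and the 5 adult clusters; grey marks a gene not in the adult table. Lgi1 and Wnt7a are at 0 in every adult cluster, though in adult cluster 4 the interval of a 0 reaches 0.604. Serpina1e and Wfdc2 are highest among adult cells in cluster 5, and Ckb in clusters 1 and 3.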

How the data were processed

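Single-cell RNA-seq was deposited for 2 libraries, 1 at P4 and 1 of adults. Per the submitters' processing notes, the tools were Seurat 2.3.4 and Cell Ranger, whose version is not given in the sources used here, and the genome build was mm10; their roles are not stated there. The authors deposited raw UMI counts per gene and cell, with no normalization, and cluster numbers per cell, which were checked to be whole numbers. Replicate animals were not named, so cells were never treated as replicates and no p-value was computed. Of 807 adult columns, 401 barcodes occur under both column prefixes and were used once. The merged counts were not used.

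Counts were pooled per cluster with Python 3.11.15, numpy 2.4.6, pandas 2.3.3 and scipy 1.17.1. Levels have exact Poisson intervals, ratios exact conditional ones (without the pseudocount) and shares Clopper-Pearson ones, all at 95%. Folds used a pseudocount of 0.1 per 10000. The dispersion is the mean squared deviation of a cell's count from its expected count, over that expected count. Doublets were not called, and a setting without the 5% of cells with the most UMI was tried instead. Scripts were tested on simulated counts. Gene positions are from GENCODE M21 on GRCm38.

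Named genes were the 15 most abundant, the 15 most variable, the 15 largest folds in each direction (a UMI in at least 10% of cells and 20 counts on the higher side), members of 34 gene lists that differed 2-fold, and a few always reported, without ribosomal protein, mitochondrial, pseudogene or predicted models. Of the most abundant genes, 1 is not reported here. Bmp2k, Spry2, Slc39a1 and the Actb limit were chosen after their values were seen. The members and the lists were chosen with earlier results of these data known. Left out without showing values were 3 lists with at most 2 measured genes (Hedgehog, neural and glial, ovary and granulosa), in which no gene was called.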

Additional observations from a re-analysis of the deposited data

How the results depend on the processing

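The counts of called genes depended on the pseudocount and on the filter. Of the 123 higher and 120 lower genes, 21 and 15 passed with a pseudocount of 0.5 per 10000, and 72 and 38 with a UMI required in 25% of cells. From cells thinned to equal depth 170 higher and 110 lower genes were called, which shared 53 and 26 with the 123 and 120. Per UMI outside ribosomal protein and mitochondrial genes 203 were lower. Of the 51 called list genes 17 were called with the pseudocount of 0.5 and 27 with the 25% filter. Of the 15 most variable genes 8 were chosen again in thinned cells and 9 without dividing cells. The median of the secreted products list, -0.56, turned to 0.24 (25% filter) and 0.54 (thinned cells), where fewer genes are measured. Without cells over 50 Actb UMI per 10000, a setting added after seeing the data, 176 genes were higher and 161 lower. All 37 tracked genes at least 2-fold apart kept their sign in all 10 alternatives, and 17 stayed at least 2-fold apart in each. No paired analysis was possible because each age is 1 library. Depth limits the low genes most: 3 counts equal 0.0453 per 10000 in cluster 1 and 0.0205 in cluster 0.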
